A study of Mus musculus with 8 samples.

Results

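The genes described here encode 10 transcription factors that promote or restrain the formation of fat cells: Pparg, Cebpa, Cebpb, Cebpd, Zfp423, Ebf1, Ebf2, Klf15, Gata2 and Gata3. They were taken by gene symbol from a table of 24358 symbols, where they account for 18 of 34535 transcript isoforms. The cells are adipocyte precursors, mesenchymal cells that can form fat, sorted by flow cytometry from the dermis of male C57/Bl6 mice aged 7 weeks. They came from nonwounded dorsal skin (6 samples) or from day 5 wound beds (2 samples). The table gives 1 FPKM (a level scaled to transcript length and to the size of the library) per isoform and group, with a p-value for the comparison, and no value per sample. No spread between samples can therefore be given, and sequencing depth is unknown. The labels do not say whether samples came from separate animals or name the markers used for sorting, so a p-value covers only the spread between these samples, which may be technical.

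Fat cell formation runs through a cascade of transcription factors. C/EBP beta and C/EBP delta, basic leucine zipper proteins, appear early after an adipogenic signal, and they act on the genes of C/EBP alpha and of the nuclear receptor PPAR gamma, which maintain each other and switch on the genes of the mature fat cell. ZFP423 and the early B cell factors EBF1 and EBF2 mark committed precursors, KLF15 acts late and responds to glucocorticoids, and GATA2 and GATA3 hold precursors back from differentiating. C/EBP beta and C/EBP delta also have a separate role in inflammation, where cytokines such as interleukin 6 induce them and they act on acute phase and cytokine genes.

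Of the 10 factors, Cebpb was the only gene with an isoform called different between the groups, at a Benjamini-Hochberg adjusted p under 0.05 over all tested isoforms. The p-values behind it are those of the authors' deposited table. Where a Cuffdiff adjusted p is given below, it is this adjustment, computed here from those p-values. Cebpb stood at 173 FPKM in wound bed cells and 19.7 in nonwounded cells. Of the 12 member isoforms tested, 1 was called higher and 0 lower, while over the 17775 isoforms tested 5.66% were called higher and 7.25% lower. Of the 12, 2 had an unadjusted p under 0.05, those of Cebpb and Klf15. Counted by gene, with the major isoform (the tested one with the highest FPKM over both groups) standing for each, 1 of 8 tested members was higher and 0 lower, against 7.00% and 8.68% of 13719 genes. A count of 1 is near this background. Gata2 and Gata3 had no tested isoform.

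The members differed widely in level. With the FPKM of all isoforms of a gene summed, the order in nonwounded skin was Cebpd (26.9), Cebpb (19.7), Ebf1 (17.8), Ebf2 (11.2), Cebpa (8.47), Zfp423 (6.02), Pparg (2.45), Klf15 (2.27), Gata2 (0.327) and Gata3 (0.181). In the wound bed Cebpb and Cebpd exchanged places, and the order of the remaining members stayed as it was. FPKM is scaled to transcript length, so these levels can be compared between genes, but without values per sample it cannot be said which neighbours in the order differ beyond their spread. In nonwounded skin the sum for Cebpd lay above 88.2% of all genes with a value and that for Pparg above 50.8%.

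**Figure D1:**
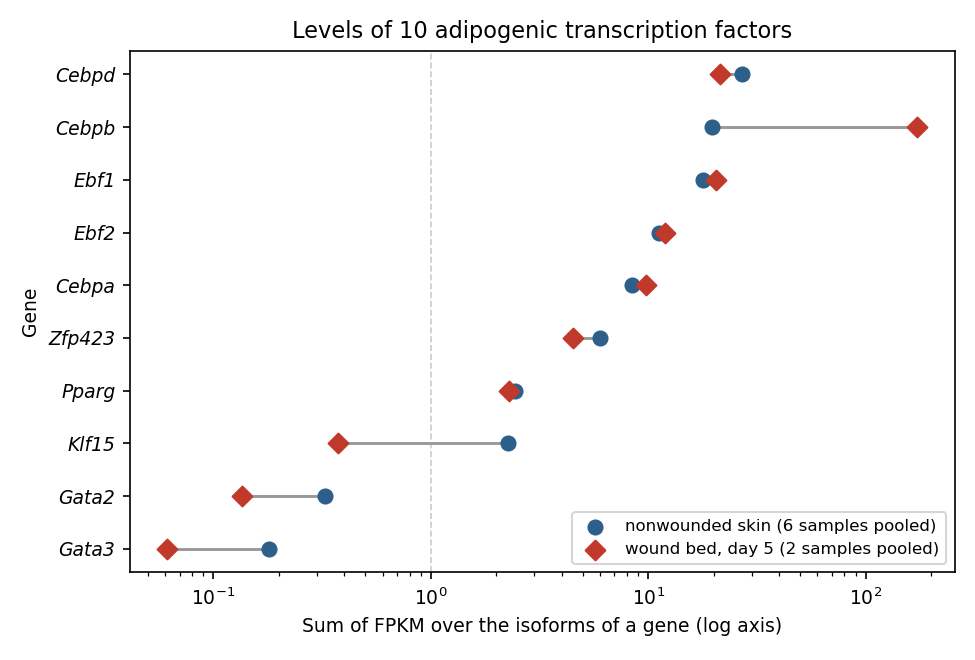
Sum of FPKM over the isoforms of each of the 10 factors (horizontal log axis) by gene (vertical axis, ordered by the nonwounded level), with circles for nonwounded skin and diamonds for the wound bed, 1 pooled value per group. Cebpb moves from 19.7 to 173, and Klf15, Gata2 and Gata3 lie to the left of the dashed line at 1 FPKM in the wound bed.

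Cebpb encodes C/EBP beta, which acts both early in fat cell formation and in the response to inflammatory cytokines. Its single isoform in the table (NM_001287738), a gene of 1 exon at chr2:167688915-167690432, rose by 3.13 on the log2 scale, or 8.77-fold. The p-value in the authors' deposited table was 5e-05, the smallest it holds, and the adjusted p was 8.82e-04. Other isoforms share this p-value, among them those of Il6, Fabp4 and Klf4, so it does not set Cebpb apart from them. Among 10910 genes whose sums reached 1 FPKM in both groups, the rise of Cebpb ranked 106 from the top, above 99.0% of them. In the wound bed its level lay above 97.9% of genes, and in nonwounded skin above 84.7%.

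The balance between the C/EBP genes differed between the groups in value. Cebpd, which encodes C/EBP delta, stood at 21.4 FPKM in wound bed cells and 26.9 in nonwounded cells, a log2 change of -0.33 that was not called (Cuffdiff adjusted p of 0.457). Cebpb was at 0.734 times the level of Cebpd in nonwounded skin and at 8.09 times in the wound bed. Cebpa, which encodes C/EBP alpha, had gene sums of 9.73 and 8.47, and Cebpb was at 2.33 times its level in nonwounded skin and at 17.8 times in the wound bed. Of the FPKM summed over all 10 members, Cebpb made up 20.7% in nonwounded skin and 70.9% in the wound bed. The other 9 members summed to 75.6 and 71.0 FPKM. These ratios have no replicate check of their own. The reads of Cebpd were assigned within a bundle at chr16:15887286-16146851 that also holds Spidr.

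The start of Cebpb is shown because it is the called member, beside that of Cebpa, a family member whose change was not called. Windows of 300 bases, from 250 before to 50 after the annotated start, were taken from RefSeq (build GRCm38.p6), which had 13 windows for 8 of the 10 members. Each was searched on both strands for the core of the cyclic AMP response element, TGACG. Capitals mark its matches in the window of Cebpb (chr2:167688665-167688964, plus strand) and TATAAA in that of Cebpa (chr7:35119043-35119342, plus strand).
Cebpb: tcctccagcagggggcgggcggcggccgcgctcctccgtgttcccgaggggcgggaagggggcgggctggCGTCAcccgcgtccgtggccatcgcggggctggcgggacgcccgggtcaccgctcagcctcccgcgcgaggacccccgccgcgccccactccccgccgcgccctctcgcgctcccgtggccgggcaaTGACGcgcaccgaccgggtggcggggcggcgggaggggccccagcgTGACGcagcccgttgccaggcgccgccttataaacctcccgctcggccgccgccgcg
Cebpa: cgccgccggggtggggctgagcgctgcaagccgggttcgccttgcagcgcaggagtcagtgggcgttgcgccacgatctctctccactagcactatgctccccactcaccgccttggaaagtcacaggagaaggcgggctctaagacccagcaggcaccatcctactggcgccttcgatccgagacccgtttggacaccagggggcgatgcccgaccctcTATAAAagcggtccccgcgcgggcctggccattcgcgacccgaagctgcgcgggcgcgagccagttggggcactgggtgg

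The Cebpb window held 3 matches to the core TGACG, with first bases at -180, -53 and -7 from the annotated start. Of the other 12 member windows, that of Klf15 held 2 matches, 1 of the windows of Ebf1 held 1, and the rest, Cebpa included, held none. At least 1 match was present in 20.8% of all 32851 windows, at least 2 in 5.01% and at least 3 in 1.03%. The Cebpb window also held 5 matches to the GC box, GGGCGG, of which the first pair overlap, a number reached in 2.71% of windows, and its share of G and C was 80.7%, against a median of 52.7% over all windows. A match to TATAAA began at -30 from the start of Cebpa and at 21 from that of Cebpb. Other cores were searched in the same way: TTNNGNAA for C/EBP proteins, found in 40.7% of windows, TTCNNNGAA for STAT proteins (8.30%), and GGGNNTTCC for NF-kB (5.82%). The windows of Cebpb and Cebpa held none of these. The EBF core CCCNNGGG, found in 13.7% of windows, had 1 match in the Cebpb window, with its first base at -208, and 0 in that of Cebpa. A match says that the letters are present, not that a factor binds there, and no match says nothing about regulation from outside the window.

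Pparg encodes PPAR gamma, the nuclear receptor without which fat cells do not form. Its sums were 2.29 FPKM in wound bed cells and 2.45 in nonwounded cells, a log2 change of -0.09. Its 4 isoforms encode 2 proteins in GENCODE M21: the ubiquitous form of 475 residues (PPAR gamma 1) and the form typical of fat (PPAR gamma 2), which carries 30 more residues at its start. Neither tested isoform was called. NM_001308354, of the shorter protein, stood at 1.30 and 1.22 FPKM (log2 change 0.09, Cuffdiff adjusted p of 0.967). NM_011146, of the longer protein, stood at 0.809 and 1.06 (log2 change -0.39, Cuffdiff adjusted p of 0.904). The 3 isoforms of the shorter protein made up 64.7% of the sum in wound bed cells and 56.5% in nonwounded cells. The isoforms share most of their sequence, so the split between them is an estimate, and the difference in these shares was not tested.

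The 2 main Pparg isoforms begin at separate places, and both start windows are given for that reason. The window of the upstream start lies at chr6:115362099-115362398 and that of NM_011146 at chr6:115421816-115422115, both on the plus strand. GENCODE places the start of NM_001308354 57 bases before the start that RefSeq gives for the upstream window. Capitals mark the nuclear receptor core AGGTCA in the upstream window and the C/EBP core TTNNGNAA in the downstream one.
Pparg upstream: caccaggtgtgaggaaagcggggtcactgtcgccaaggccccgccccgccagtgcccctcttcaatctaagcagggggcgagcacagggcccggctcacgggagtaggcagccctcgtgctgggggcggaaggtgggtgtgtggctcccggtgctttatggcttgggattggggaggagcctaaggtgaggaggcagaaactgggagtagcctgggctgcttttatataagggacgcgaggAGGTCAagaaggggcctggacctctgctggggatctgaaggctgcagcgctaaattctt
Pparg downstream: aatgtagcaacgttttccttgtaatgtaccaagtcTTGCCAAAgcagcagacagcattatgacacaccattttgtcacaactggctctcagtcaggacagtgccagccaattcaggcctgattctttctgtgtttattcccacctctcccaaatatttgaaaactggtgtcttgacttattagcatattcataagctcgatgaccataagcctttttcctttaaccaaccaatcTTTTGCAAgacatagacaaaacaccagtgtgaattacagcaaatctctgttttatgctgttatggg

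The downstream window, of the fat-typical form, held 2 matches to the C/EBP core, 1 on each strand, with first bases at -215 and -16 from the start. At least 2 matches were present in 15.1% of all windows. The upstream window held none of these, and it held 1 match to AGGTCA, which was present in 16.3% of windows. The share of G and C was 62.7% upstream and 40.3% downstream. These are descriptions of the letters in the windows.

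Cebpa encodes C/EBP alpha, the partner of PPAR gamma in the mature fat cell. Its main isoform in the table (NM_001287514) stood at 9.29 FPKM in wound bed cells and 7.95 in nonwounded cells and was not called (log2 change 0.23, Cuffdiff adjusted p of 0.687). A further isoform (NM_007678), which matches the same GENCODE transcript of 1 exon, was listed at 0.438 and 0.519 and not tested. The sum of Cebpa was 4.24 times that of Pparg in the wound bed and 3.46 times in nonwounded skin.

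The factors of committed precursors also had no call. Zfp423, which encodes a zinc finger protein that marks preadipocytes, stood at 4.52 FPKM in wound bed cells and 6.02 in nonwounded cells (log2 change -0.41, Cuffdiff adjusted p of 0.404). Ebf2 had gene sums of 12.0 and 11.2, and its main isoform (NM_010095) was not called (log2 change 0.20, Cuffdiff adjusted p of 0.658). The other Ebf2 isoform, NM_001276387, was listed at 0.0155 and 0.741 without a test, and it shares its GENCODE transcript with the main one.

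Ebf1 had gene sums of 20.5 FPKM in wound bed cells and 17.8 in nonwounded cells, and its 4 isoforms differed in the sign of their change without a call. The main isoform, NM_007897, stood at 12.2 and 12.9 (log2 change -0.08, Cuffdiff adjusted p of 0.857). NM_001290709 stood at 6.68 and 3.31 (log2 change 1.01, Cuffdiff adjusted p of 0.300), and its share of the gene sum was 32.6% in wound bed cells and 18.5% in nonwounded cells. NM_001290710 stood at 1.43 and 0.797, and NM_001290711 at 0.188 and 0.837, also without a call. All 4 begin at 1 position in GENCODE and encode proteins of 584 to 592 residues. None of the 4 isoforms was called between the groups, and the differences between isoforms were not tested. The gene sum gave a log2 change of 0.20 against -0.08 for the main isoform alone.

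**Figure D2:**
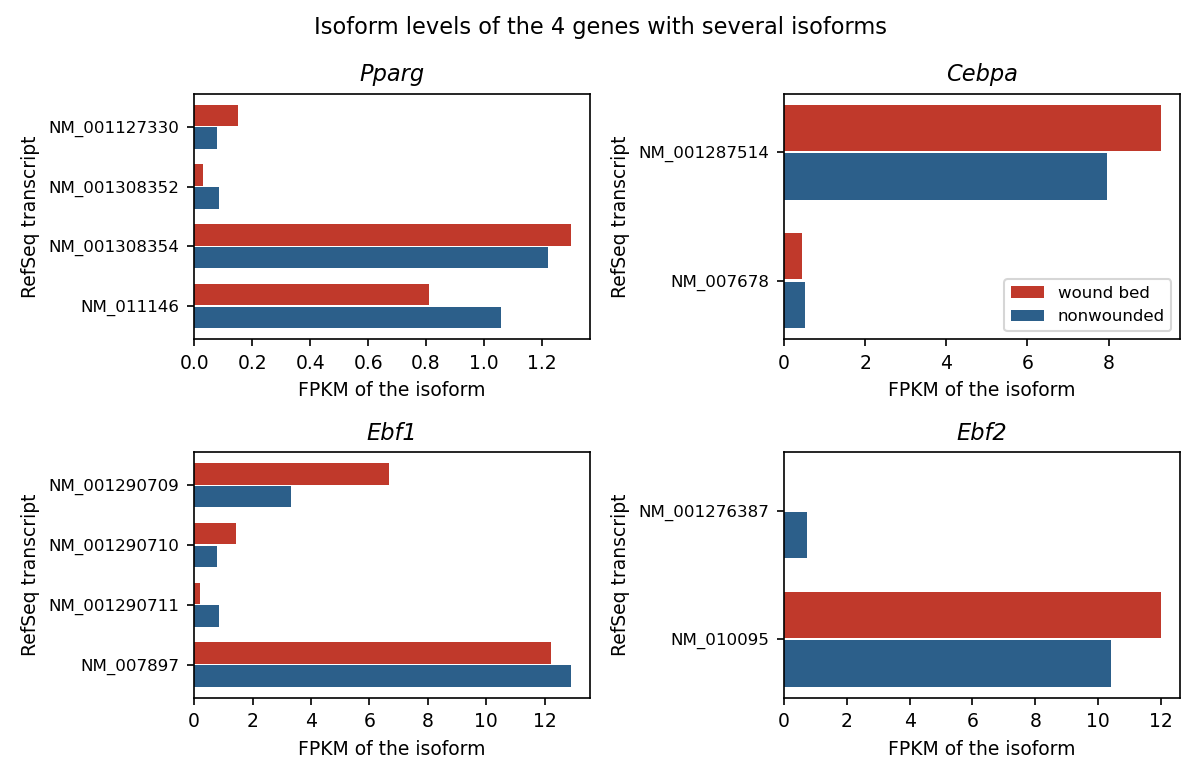
FPKM of each isoform (horizontal axis, starting at 0) of Pparg, Cebpa, Ebf1 and Ebf2, with 1 bar per group, red for the wound bed and blue for nonwounded skin, each a single pooled value without error. NM_001290709 of Ebf1 has bars at 6.68 and 3.31, and the longest bars of each gene differ by less.

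Klf15, a zinc finger factor that favours fat cell formation and responds to glucocorticoids, had the lowest log2 change among the tested members. It stood at 0.376 FPKM in wound bed cells and 2.27 in nonwounded cells, a log2 change of -2.59. The p-value in the authors' deposited table was 0.0384. The adjusted p was 0.157, so the difference was not called. Few falls of this size were called at this level: of 785 isoforms between 1 and 5 FPKM in the higher group whose log2 change was -2.5 or lower, 44 were called. Why the others were not called was not tested. With a pseudocount of 1 the change of Klf15 was -1.25.

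The inhibitory factors had the lowest levels of the 10. Gata2 was listed at 0.136 FPKM in wound bed cells and 0.327 in nonwounded cells, and Gata3 at 0.0615 and 0.181. Neither was tested by the authors, and with a pseudocount of 1 their log2 changes were -0.22 and -0.15. Of their family, Gata6 stood at 7.82 and 4.47 FPKM without a call (Cuffdiff adjusted p of 0.135), while Gata4 and Gata5 were listed at 0 in the wound bed and Gata1 at 0.0931 and 0.127.

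What the comparison could show depended on the level. Of 5768 tested isoforms between 5 and 20 FPKM in the higher group, the range of Cebpa, Zfp423, Ebf2 and the 2 main isoforms of Ebf1, 14.1% were called, and the smallest called change was 0.68 on the log2 scale. Between 20 and 100 FPKM, the range of Cebpd, it was also 0.68, and between 1 and 5 FPKM, the range of the main Pparg isoforms, it was 0.82. The changes of Cebpa, Cebpd, Zfp423, Ebf2, both tested main isoforms of Pparg and NM_007897 of Ebf1 lay within these limits. Larger changes could also go without a call, such as 1.01 for NM_001290709 of Ebf1. The absence of a call therefore does not show that these factors kept their level.

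**Figure D3:**
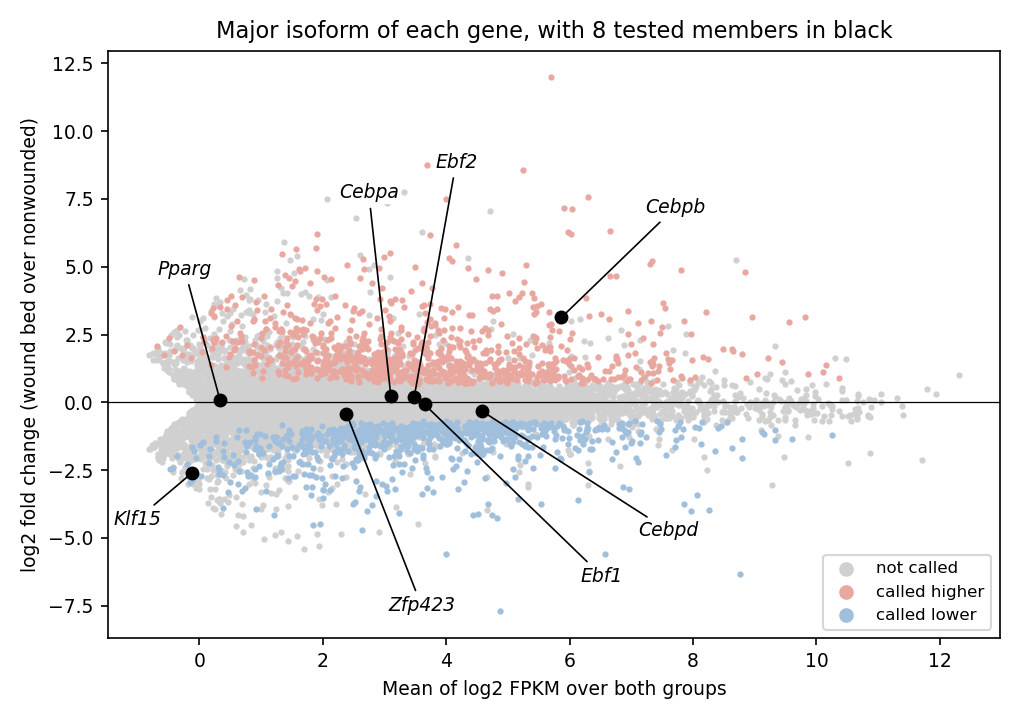
Log2 fold change of the major isoform of 11815 genes (wound bed over nonwounded, vertical axis) against the mean log2 FPKM of both groups (horizontal axis), a point for each gene, with called rises in red, called falls in blue, the rest in grey and members in black. Genes under 1 FPKM in the higher group or under 0.3 in either are not drawn. Cebpb at 3.13 lies among the called genes, Klf15 at -2.59 on the low-level side, and the other 6 members near 0.

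Genes that act with these factors were followed in 6 lists, chosen with earlier results of these data known, so their counts are descriptions only. A member counts as tested where its major isoform reached 1 FPKM in the higher group. Over the 12961 such genes, 7.39% were called higher and 8.70% lower, and the median log2 change was -0.14. In the list of fat cell genes that PPAR gamma and C/EBP alpha switch on, 0 of the 29 tested (of 31 listed) were higher and 5 were lower, with a median of -0.74. By value, 19 of the 29 lay below 0 and 10 above. The 5 were Adipoq (18.4 FPKM in nonwounded skin and 0.814 in the wound bed), the adipocyte hormone gene, Fabp4, a fatty acid binding protein gene, the desaturase gene Scd1 and the lipase genes Mgll and Pnpla2. Fabp4 stood at 45.4 FPKM in the wound bed against 150.3 (log2 change -1.73, Cuffdiff adjusted p of 8.82e-04), and Scd1 at 23.0 against 49.3 (log2 change -1.10). Lpl, the lipoprotein lipase gene, stood at 56.5 and 94.5 FPKM without a call (Cuffdiff adjusted p of 0.0585). At an adjusted p under 0.01, 2 of the 5 remained called.

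In the list of inflammatory genes on which C/EBP beta and C/EBP delta act, 11 of all 14 genes, each tested, were higher and 0 lower. Earlier results of these data were known when this list was chosen, so its count is no test of C/EBP activity. The median log2 change was 4.93, without Csf3, which was listed at 0 in nonwounded skin. Il6, the interleukin 6 gene, stood at 736 FPKM in wound bed cells and 1.94 in nonwounded cells, and Ptx3, which encodes pentraxin 3, at 1088 and 5.70. Lcn2, the lipocalin 2 gene, rose by 4.93 on the log2 scale and Ccl2, a monocyte chemokine gene, by 7.11. The acute phase gene Saa3 stood at 3295 against 0.814 (Cuffdiff adjusted p of 0.0473). Il1b and Nos2 were higher in value without a call, and Orm1 stood at 0.328 against 3.02 without a call. Cebpb and this list were higher in the same group, but 2 pooled values per gene give no measure of whether they vary together.

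Of the signals that act on Cebpb and Cebpd, 8 of 16 tested genes were higher and 0 lower, with a median of 1.81. Besides Il6, which both lists hold, Socs3, the feedback inhibitor gene of this pathway, rose by 3.48 on the log2 scale, Osmr, the oncostatin M receptor gene, by 3.67 and Atf3, a stress-responsive factor gene of the CREB family, by 3.65. Stat3, which encodes the factor that carries the interleukin 6 signal, stood at 37.6 FPKM against 13.3 for its major isoform (log2 change 1.50, Cuffdiff adjusted p of 8.82e-04). Nr3c1, the glucocorticoid receptor gene, stood at 13.4 and 19.7 without a call (Cuffdiff adjusted p of 0.133).

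Of other factors that favour fat cell formation, 4 of the 21 tested (of 24 listed) were higher and 1 lower, with a median of -0.19. The 4 were Klf4 (303 FPKM in the wound bed, 129 in nonwounded skin), Klf5 (8.20 and 1.76), Klf6 (196 and 59.6) and Egr2 (32.2 and 0.440), all zinc finger genes that also answer quickly to stress and growth signals. Stat5b fell by 0.80 on the log2 scale. Rxra, the gene of the partner with which PPAR gamma binds DNA, had gene sums of 11.0 and 11.2 FPKM and was not called (Cuffdiff adjusted p of 0.831).

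Of 26 tested inhibitors of adipogenesis, 4 were higher and 5 lower, with a median of 0.50. Tgfb1, the transforming growth factor beta 1 gene, rose by 2.92 on the log2 scale, Hes1, a Notch target gene, by 1.63 and Ddit3, a stress-induced C/EBP family gene, by 1.44. Zfpm2, which encodes a cofactor of GATA proteins, rose by 1.04. The lower ones were Tsc22d3, a glucocorticoid-induced gene (-4.15, with a gene sum of -2.86), Irf4 (-3.37), Foxo1 (-1.88), the Wnt ligand gene Wnt10b (-1.59) and Irf3 (-1.37). Dlk1, which encodes the preadipocyte factor Pref-1, and Zfp521, the paralog and antagonist of Zfp423, were not called. For Dlk1 the major isoform stood at 2.10 against 1.05 FPKM (log2 change 1.01, Cuffdiff adjusted p of 0.517), while the gene sum, which has no test, was lower, at 2.78 against 3.50. Zfp521 stood at 15.9 against 17.0 FPKM.

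Among other genes of the same factor families, 1 of the 6 tested (of 12 listed) was higher and 1 lower, with a median of 0.35. The higher one was Ddit3. The lower one was Ebf3, whose major isoform stood at 4.14 FPKM against 9.23 (log2 change -1.16, Cuffdiff adjusted p of 0.0138), with gene sums of 8.23 and 12.6. Cebpg, the gene of a short C/EBP protein, stood at 8.22 and 8.93, and Ppard, the gene of PPAR delta, at 8.29 and 4.30 (Cuffdiff adjusted p of 0.0759), both without a call. Pparg at 2.45 FPKM was thus listed below Ppard at 4.30 in nonwounded skin.

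**Figure D4:**
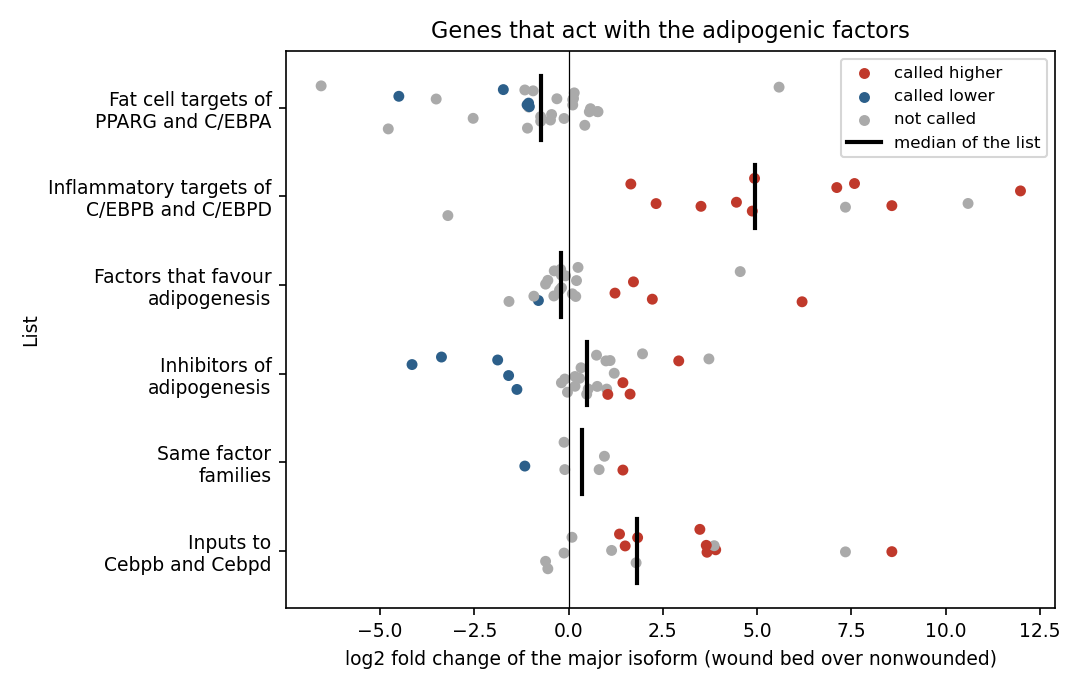
Log2 fold change of the major isoform (horizontal axis, wound bed over nonwounded) for the tested genes of 6 lists of genes that act with the factors (vertical axis), a point for each gene, with called rises in red, called falls in blue and the rest in grey, and a black bar at the median. A gene listed at 0 in either group is left out. Fat cell targets have the lowest median, -0.74, and inflammatory targets the highest, 4.93.

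Several of the factors are also made by cell types that could be carried over in a dermal sort: Cebpa and Cebpb by myeloid cells, Gata2 by mast and endothelial cells, Gata3 by lymphocytes and keratinocytes, and Ebf1 by B cells. In bulk RNA, fewer cells of a type and less RNA per cell cannot be told apart. Of 10 macrophage and monocyte markers, 7 were called higher and 0 lower. Their summed level was 837 FPKM in wound bed cells and 299 in nonwounded cells, a 2.80-fold difference. Most of this sum came from Lyz2 (524 and 174 FPKM). By gene sum the rises ranged from 0.56 on the log2 scale for Csf1r to 2.82 for Ptprc. Neutrophil markers summed to 105 and 2.81 FPKM, a 37.4-fold difference, with 0 of 4 tested called. The part of these cells in the levels of Cebpb, Cebpa and the inflammatory genes was not tested, nor was their part in the levels of the other members.

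Mast cell markers summed to 10.3 FPKM in wound bed cells and 60.3 in nonwounded cells, with 4 of 5 tested lower. The remaining tested one, Hdc, was higher in value without a call, at 4.07 against 1.06 FPKM. Endothelial markers summed to 29.2 and 91.8 FPKM with 0 of 6 tested called. Most of the endothelial sum came from Tek (18.4 and 83.1 FPKM). The other 8 endothelial genes summed to 10.8 and 8.73 FPKM, and 7 of them were higher in value in the wound bed. Their part in the values of Gata2 was not tested. Lymphocyte markers were low, at 2.95 and 1.71 FPKM for 8 T cell and innate lymphoid genes and 0.887 and 0.437 for 5 B cell genes. Among the latter Ms4a1 and Pax5 were listed at 0 in the wound bed, while Cd79a stood at 0.211 against 0.0501 FPKM and Cd79b at 0.676 against 0.338. The part of B cells in the values of Ebf1 was not tested. Keratinocyte markers summed to 34.2 and 20.1 FPKM, with 2 of 5 tested higher. By gene sum this list was mixed in sign. Krt15 (1.24 against 3.73 FPKM), Trp63 (0.493 against 1.14) and Epcam (0.261 against 0.824) were lower in value in the wound bed, and the rest were higher. The part of lymphocytes and keratinocytes in the values of Gata3 was not tested.

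Mature fat cell markers, all 8 of which are also in the list of fat cell targets, summed to 4.14 FPKM in wound bed cells and 92.7 in nonwounded cells, with 1 of 6 tested lower. This sum was 22.4-fold higher in nonwounded cells. Most of it there came from Cfd (1.43 FPKM in wound bed cells and 52.8 in nonwounded cells), which was not called (Cuffdiff adjusted p of 0.187). The sum of Pparg was 1.07-fold higher in nonwounded cells, and that of Cebpa 1.15-fold higher in wound bed cells. The part of mature fat cells in the lower fat cell genes was not tested. Mesenchymal and precursor markers summed to 7702 FPKM in wound bed cells and 9414 in nonwounded cells. Of the 9 tested, 0 were called higher and 1 lower, Cd24a, a surface marker gene of early precursors, at 9.38 against 24.9 FPKM. By gene sum 5 of the 9 were higher in value, among them Pdgfra (91.8 against 80.9), and 4 were lower, among them Cd34 (679 against 1104) and Ly6a (1576 against 2691).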

How the data were processed

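Per the labels, dermal precursors were sorted, their RNA was isolated by Trizol combined with a column, and TruSeq mRNA libraries were sequenced. Titles give 6 nonwounded and 2 wound bed samples. The submitters' processing notes name TopHat2 2.0.2 and Cuffdiff 2.0.2, and the deposited table has the layout of Cuffdiff output, so its p-values are called Cuffdiff's here. The adjusted p-values were computed here from them. The notes name mm9, but the start or end of the table's locus equals that of the RefSeq gene in GRCm38.p6 for 8 of the 10 members, and positions are those of the table, with starts converted to count from 1. The FPKM values are those the authors deposited, pooled by group, and the p-values are those the authors deposited, which carry no value per sample. The number of per-sample columns left out was 0. No count test could be run on FPKM.

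Of the isoforms in the table, 17775 had been tested by the authors, 16745 were marked not tested and 15 had an unusable status and were left out. Calls rest on the p-values as deposited, adjusted by the Benjamini-Hochberg method across every tested isoform, and equal the deposited yes or no for all 34535. The log2 fold change was computed as wound bed over nonwounded FPKM without a pseudocount, because the deposited column runs the other way and holds spreadsheet errors. Gene sums add all usable isoforms of a symbol and have no test. The adjustment was tested on simulated data.

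The members and lists were chosen with earlier results of these data known. Named genes are all members, the 4 largest called changes per direction in each list where both groups reached 1 FPKM, and 16 further genes by name. Outside this rule, and chosen after their values were seen, are Irf3, Csf3, Il1b, Nos2, Orm1, Gata1, Gata4, Gata5, Gata6, Ppard, Tek, Pdgfra, Cd34, Ly6a, Cd79a, Cd79b, Ms4a1, Pax5, Csf1r, Ptprc, Krt15, Trp63, Epcam, Hdc and Cfd. The 18 member isoforms matched 14 GENCODE M21 transcripts by RefSeq identifier. Start windows came from RefSeq (GRCm38.p6). The alternatives were other thresholds, a minimum fold change, a filter on low values, pseudocounts, other isoform sums and centring. Python 3.11.15, numpy 2.4.6, pandas 2.3.3 and matplotlib 3.10.9 were used.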

Additional observations from a re-analysis of the deposited data

How the results depend on the processing

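Cebpb was the member called, and its count of 1 isoform and 1 gene was the same at adjusted p thresholds of 0.01 and 0.1, when a change of 1 on the log2 scale was also asked for, and with adjustment over isoforms of at least 1 FPKM. Its log2 fold change ranged from 3.07 with a pseudocount of 1 to 3.26 when centred on the median of gene sums (-0.13). Of 55 alternative gene sums of members, 51 moved by less than 1.5-fold and 4 by more, all of them towards 0 with a pseudocount: Klf15 (-1.25), Gata2 (-0.22) and Gata3 (-0.15) with 1, and Gata3 (-0.80) with 0.1. In 3 alternatives an uncalled change near 0 crossed it: Pparg gave 0.09 for its major isoform and 0.04 when centred, and Ebf1 gave -0.08 for its major isoform. Over the 6 lists together, 26 of 106 tested genes were called higher and 12 lower. Over all 12961 genes tested in this way, 7.39% were called higher and 8.70% lower. The lower count of the lists was 5 at an adjusted p under 0.01, where fewer calls follow from the stricter threshold. No paired analysis was possible because the table holds 1 value per group, and for the same reason no replicate was left out in turn. With the depth of each sample unknown, precision can be judged only from the calls. The median size of a called log2 change was 1.47 between 5 and 20 FPKM and 1.34 between 20 and 100 FPKM. The smallest was 0.68 in both ranges, but NM_001290709 of Ebf1 was not called at 1.01. Under 1 FPKM 67 of 1359 tested isoforms were called.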
